A study of Gallus gallus with 2 samples.

Results

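The genes described here are 10 members of bone morphogenetic protein (BMP) signalling: the ligands BMP2, BMP4 and BMP7, the secreted antagonists NOG, CHRD and CHRDL1, and the target genes ID1, ID2, ID3 and ID4. They were read from 21 probes of the 43603 on the array outside the control spots, chosen because the symbol in the deposited expression report was that of a member. All 21 probes were well above background on all 8 arrays, and all were among the 31504 probes tested. Counted by gene, each by its brightest probe, they made up 10 of 18945 genes or accessions.

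The study asked which genes change in the embryonic chick forebrain when Notch signalling is blocked. Embryos were taken at Hamburger and Hamilton stage HH10 and cultured in rolling tubes for 16 h, to about HH13, either in DMSO alone or in DMSO with 40 µM DAPT, which inhibits γ-secretase, the enzyme that cuts activated Notch receptors free from the membrane. The tissue was the front of the head, which the paper describes as the prosencephalon, rostral to the midbrain and with the hypothalamic primordium. With the optic vesicles and the tissue over them, neuroepithelium, surface ectoderm, mesenchyme and vessels share each value. Each condition had 4 arrays, each from a pool of 5 embryos, and arrays 1 and 2 of both conditions lay on slide 1 and arrays 3 and 4 on slide 2. In such whole tissue, fewer cells of a type and less RNA per cell cannot be told apart.

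BMP ligands bind pairs of type I and type II receptors, which phosphorylate SMAD1, SMAD5 and SMAD9, and these enter the nucleus and switch on targets, the ID genes among the most direct. Noggin and the chordin family bind the ligands outside the cell and keep them from their receptors. ID proteins have a helix-loop-helix but no basic region, so they hold E proteins away from proneural factors, and in the early forebrain BMP signalling is known for its part in patterning the dorsal midline and the eye.

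Between DAPT and DMSO, 0 of the 10 genes and 0 of their 21 probes reached an adjusted p under 0.05 in limma's two-sided test, with Benjamini-Hochberg correction across the 31504 probes. Over all genes 26 of 18945 (0.137%) did, 19 higher and 7 lower, and at an unadjusted p under 0.05 the counts were 0 of the 10 genes and 491 of all genes. For 0 of the 10 genes did the 4 DAPT arrays all lie on one side of the 4 DMSO arrays, which was so for 1.86% of all genes. The adjusted p was 0.9999 for each of the 10 genes without a block. Levels are log2 signals with the array's own median set to 0, given for arrays 1 to 4 in order and by the brightest probe unless another is named, and differences are DAPT minus DMSO with limma's standard error (SE) and 95% confidence interval. The exact permutation tests are two-sided over the 70 arrangements of 8 arrays, and the smallest p they can give is 0.0286.

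The treatment itself was visible on the same arrays. HES5, a direct Notch target, was well above background on 4 of 4 DMSO arrays and 1 of 4 DAPT arrays, so its difference is given as a bound. With each signal raised to the lowest one well above background on its array, HES5 was at least 34.8-fold lower with DAPT, and its adjusted p was 0.00355 without this floor. HEY1, another target, had a log2 difference of -1.52 (SE 0.19, adjusted p = 0.0181). NEUROG1, a proneural gene, had 3.15 (SE 0.39, adjusted p = 0.0180), while the Notch ligand DLL1 had 1.18 (SE 0.28), which did not pass (adjusted p = 0.469) but passed with a block for slide (adjusted p = 0.0195) or for the array number (adjusted p = 0.0185). Of the variance, 59.5% lay along a first component that parted the slides, which were also scanned on different days, so slide, scan and set of experiments cannot be told apart. Median signals before scaling were 177.6 to 353.8, and 67.8% to 80.8% of the spots were well above background.

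BMP2, a close relative of BMP4 that acts through the same receptors, had the lowest difference of the 10 genes. Its log2 signal was 4.47, 4.52, 5.44 and 5.06 in DMSO and 4.12, 4.05, 4.94 and 4.08 in DAPT. DAPT array 3 stood apart from the other DAPT arrays and lay among the DMSO values. The other 3 DAPT arrays lay below all 4 DMSO arrays, which was so for 2.19% of all genes. That share leaves out the same array for every gene, while here the array was picked by its BMP2 value. The share is therefore not a like measure of how rare this is. The means were 4.88 ± 0.46 and 4.30 ± 0.43 (SD, n = 4 each). The log2 difference was -0.58 (SE 0.29, 95% interval -1.21 to 0.057), which is a DMSO signal 1.49-fold that of DAPT (exact permutation p = 0.143). Within each slide both DAPT arrays lay below both DMSO arrays, and the log2 difference was -0.42 on slide 1 and -0.74 on slide 2. With slide as a block the interval was -1.01 to -0.15 and the adjusted p was 0.552. With normexp, a background correction that models brightness as signal plus noise and here put the median of all probes at -0.32, the difference was -1.30 (adjusted p = 0.143). Among all genes the difference of -0.58 was at percentile 1.74, and BMP2 has 1 probe here.

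BMP4, a ligand of the dorsal forebrain and optic vesicle, was below the array median on all 8 arrays, with log2 signals of -1.26, -1.08, -0.79 and -0.080 in DMSO and -0.81, -1.14, -0.021 and -0.69 in DAPT. The conditions overlapped over most of their range. DAPT minus DMSO was 0.14 in log2 units (SE 0.31, 95% interval -0.55 to 0.82, exact permutation p = 0.657), with 0.19 on slide 1 and 0.079 on slide 2, and it was -0.079 without DAPT array 3. The second probe of BMP4 was -1.21, -1.10, -1.68 and -1.85 in DMSO and -1.01, -1.96, -1.45 and -1.91 in DAPT. It gave -0.12 (SE 0.27), so the probes did not give the same sign, and both were within their SE of 0.

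BMP7, a ligand that can pair with BMP2 or BMP4, was 0.51, 0.67, -0.69 and -0.63 in DMSO and 0.87, 0.80, -0.086 and -0.47 in DAPT. The slides were further apart than the conditions, and on each slide both DAPT arrays lay above both DMSO arrays. The log2 difference was 0.31 (SE 0.41, 95% interval -0.59 to 1.22, exact permutation p = 0.514), with 0.24 on slide 1 and 0.38 on slide 2, and with slide as a block the adjusted p was 0.870. Array weights in the fit turned it to -0.15. The second probe, with log2 signals between -0.74 and -0.43 on all 8 arrays, gave -0.037 (SE 0.17). A further 3 probes carry no symbol in the report and are BMP7 only through their accession in the RefSeq gene table, so they fall outside the 21, and these gave log2 differences of -0.0040, 0.035 and -0.023. The brightest of the 3 was 3.63, 3.62, 3.82 and 4.10 in DMSO and 3.51, 4.04, 4.06 and 3.69 in DAPT, with both conditions over the same range. Of these 5 probes, the value of 0.31 therefore rests on a single one.

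**Figure D1:**
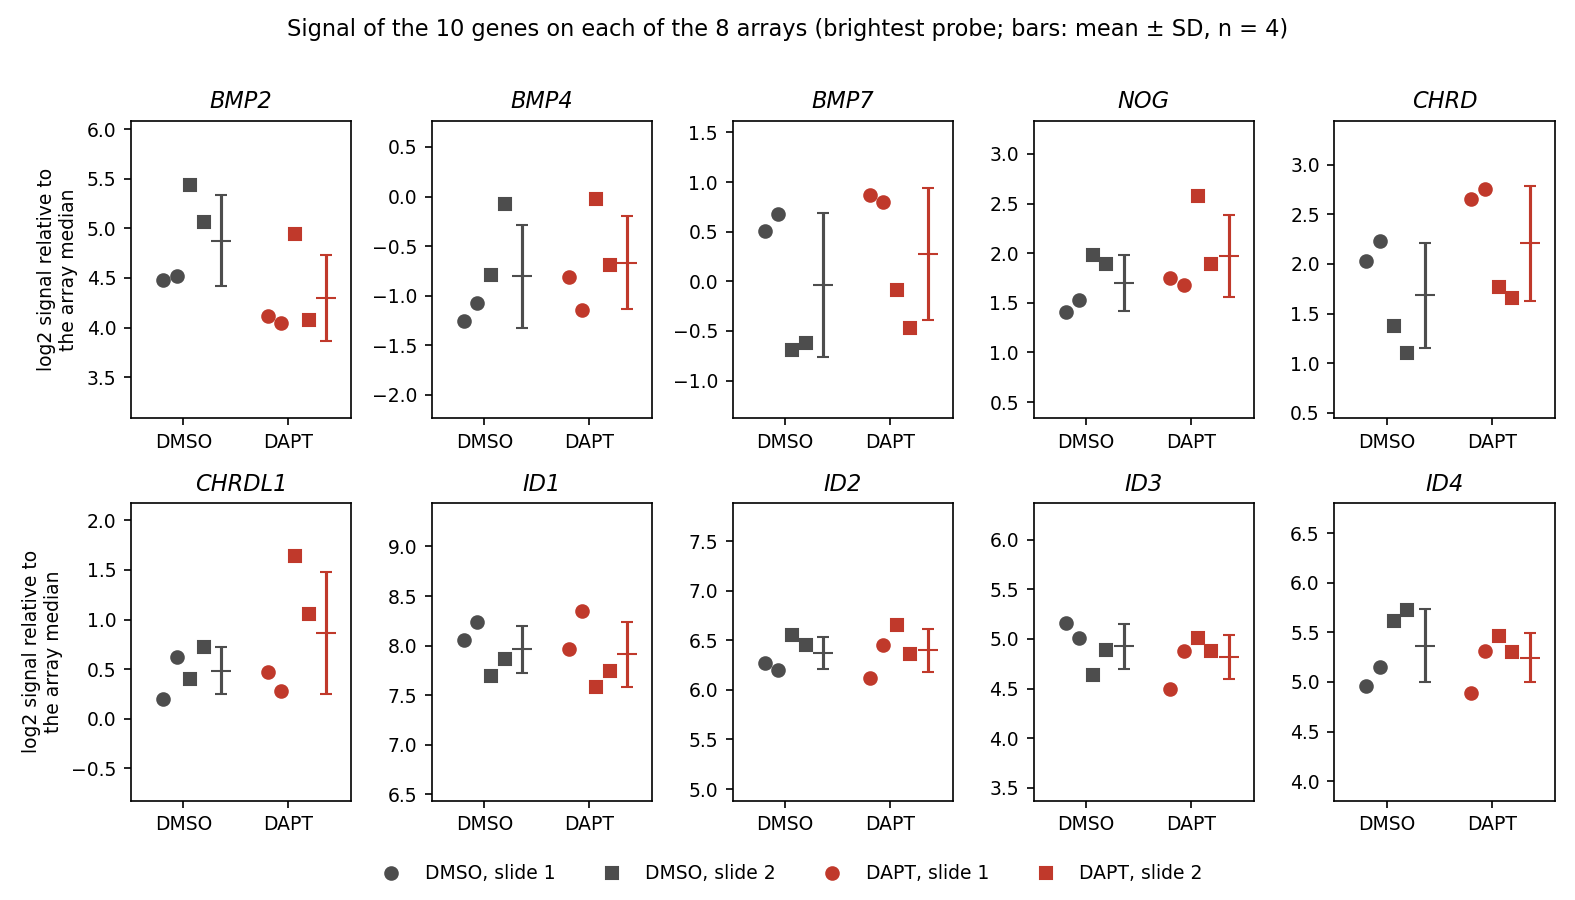
Log2 signal relative to the array median (vertical axis, spanning the same range of log2 units in every panel) of the 10 genes on each array, DMSO in grey and DAPT in red, circles for slide 1 and squares for slide 2, with bars for the mean ± SD of 4 arrays. The conditions overlap in all 10 panels, and in the panels of BMP7, CHRD and ID1 the squares lie below the circles of the same condition.

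The 3 antagonists had differences above 0 over the 8 arrays, but with normexp, where the median of all probes was -0.32, NOG was at -0.21 and CHRDL1 at -0.097, and on slide 1 alone CHRDL1 was at -0.036. Their median log2 difference was 0.38, beside -0.011 over all genes tested, and 0 of the 3 passed the test. Without DAPT array 3, NOG moved from 0.27 to 0.072 and CHRDL1 from 0.38 to 0.12. CHRD, chordin, which binds BMP ligands in the extracellular space, had the highest difference of the 10 over the 8 arrays, though not in every setting. It was 0.044 with normexp, below BMP7 (0.26) and BMP4 (0.21), and 0.21 with array weights, below NOG (0.35), CHRDL1 (0.33) and BMP4 (0.29). CHRD was also below CHRDL1 on slide 2 alone (0.47 beside 0.79), and without DAPT array 1, DAPT array 2 or DMSO array 4. Its log2 signal was 2.03, 2.23, 1.38 and 1.1 in DMSO and 2.66, 2.75, 1.76 and 1.66 in DAPT. On each slide both DAPT arrays lay above both DMSO arrays, while DAPT arrays 3 and 4 lay below DMSO arrays 1 and 2. The log2 difference was 0.52 (SE 0.34, 95% interval -0.23 to 1.28), a DAPT signal 1.44-fold that of DMSO (exact permutation p = 0.20), with 0.58 on slide 1 and 0.47 on slide 2. With slide as a block the interval was 0.22 to 0.82 and the adjusted p was 0.268, and a block for the array number gave 0.197. The means were 1.68 ± 0.53 and 2.21 ± 0.58 (SD, n = 4 each), and among all genes the difference was at percentile 98.1. The second CHRD probe was 1.58, 1.67, 0.95 and 0.63 in DMSO and 2.11, 2.25, 1.29 and 1.11 in DAPT. It gave 0.48 (SE 0.33) and was placed in the same way on each slide, with 0.55 on slide 1 and 0.41 on slide 2.

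NOG, noggin, a dimer that covers the receptor-binding surfaces of BMPs, was 1.40, 1.53, 1.99 and 1.89 in DMSO and 1.75, 1.68, 2.58 and 1.89 in DAPT. DAPT array 3 was the highest of the 8, and array 4 was level between the conditions. DAPT minus DMSO was 0.27 in log2 units (SE 0.24, 95% interval -0.27 to 0.81, exact permutation p = 0.343). Slide 1 gave 0.25 and slide 2 gave 0.29, and the second NOG probe gave 0.30 (SE 0.28).

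CHRDL1, chordin-like 1, an antagonist of BMP4 in the developing eye, was 0.20, 0.63, 0.40 and 0.72 in DMSO and 0.47, 0.28, 1.64 and 1.06 in DAPT. Only the DAPT arrays of slide 2 lay above all DMSO arrays, and those of slide 1 lay within the DMSO range. The log2 difference was 0.38 (SE 0.29, 95% interval -0.28 to 1.03, exact permutation p = 0.343), with -0.036 on slide 1 and 0.79 on slide 2. The difference between the slides in this response was 0.82 (SE 0.37), which did not pass the test (limma interaction, adjusted p = 0.9999). The second CHRDL1 probe gave 0.19 (SE 0.26), again with opposite signs on the slides, -0.094 and 0.46. The study chose CHRDL1 for its list of altered genes from these same arrays, so its direction here is not independent evidence. The paper also reports higher Chrdl1 by in situ hybridization in the developing hypothalamus of DAPT-treated embryos, which was not examined here.

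**Figure D2:**
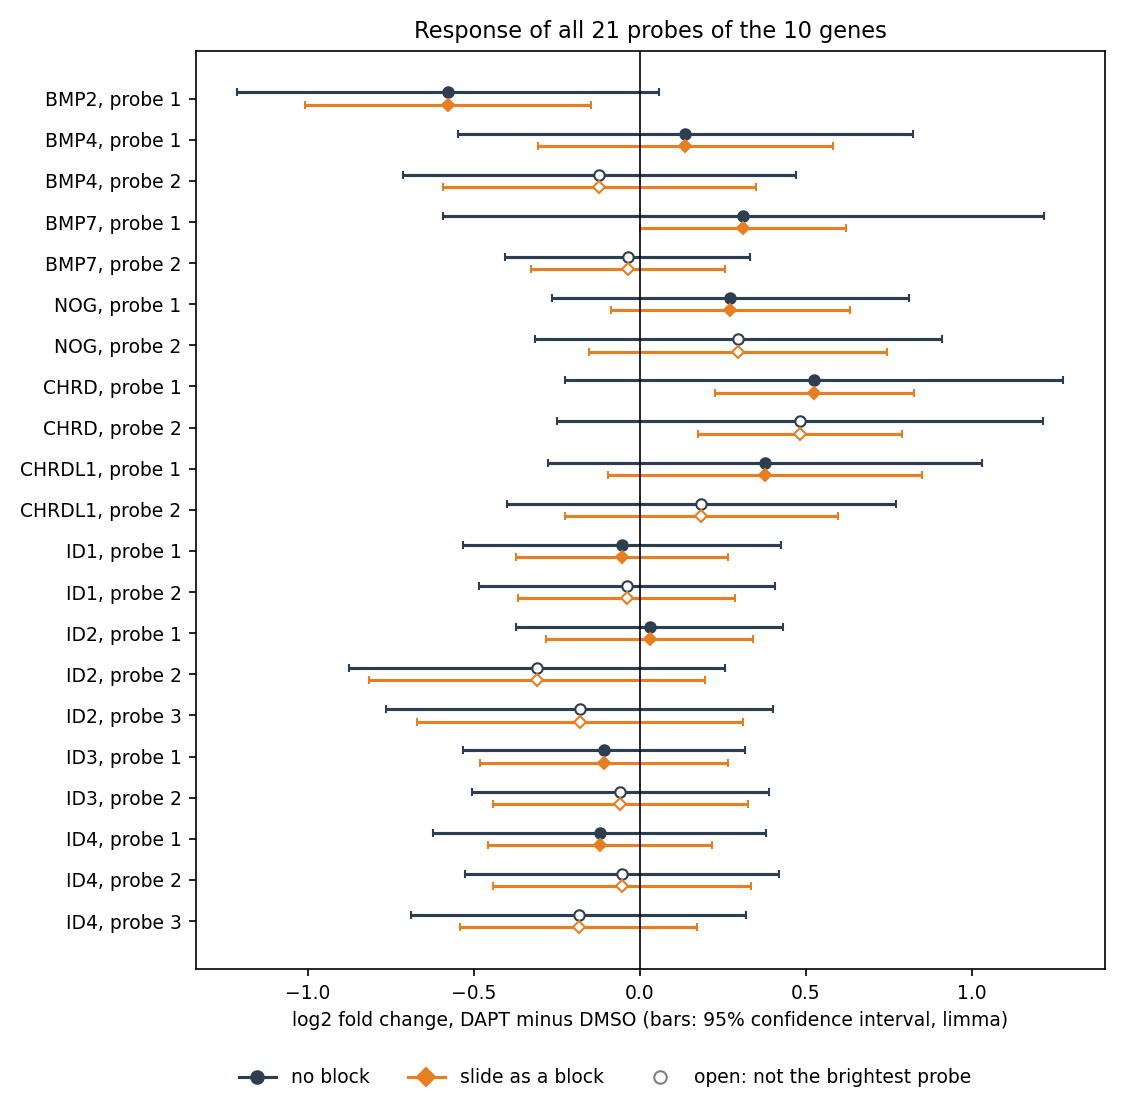
Log2 difference, DAPT minus DMSO (horizontal axis), of each of the 21 probes with its 95% confidence interval from limma, without a block (dark circles) and with slide as a block (orange diamonds); filled symbols are the brightest probe of a gene, listed as probe 1. Without a block all 21 intervals include 0, and with slide as a block those of BMP2 (-1.01 to -0.15) and of both CHRD probes do not, although no adjusted p is under 0.05.

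The 4 ID genes had log2 differences between -0.12 and 0.029, with a median of -0.081, and all 4 overlapped between the conditions. With normexp they had -0.67 to -0.83, where the median of the genes as bright or brighter than the 75th percentile was -0.70, and the adjusted p was 0.143 at the lowest. ID1, the ID gene most often read as a report of BMP signalling, was 8.06, 8.24, 7.69 and 7.86 in DMSO and 7.96, 8.35, 7.59 and 7.74 in DAPT. Array 2 was the highest in both conditions and array 3 the lowest. The log2 difference was -0.054 (SE 0.21, 95% interval -0.53 to 0.43, exact permutation p = 0.83). This ID1 probe was saturated on 2 arrays, and the second, not saturated on any array, gave -0.040 (SE 0.20).

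ID2, which also restrains neuronal differentiation, was 6.27, 6.20, 6.55 and 6.45 in DMSO and 6.12, 6.45, 6.65 and 6.37 in DAPT. All 8 arrays lay within a narrow range, with the lowest and the highest both from DAPT. The conditions differed by 0.029 in log2 units (SE 0.18, 95% interval -0.37 to 0.43, exact permutation p = 0.83). The other ID2 probes gave -0.18 (SE 0.26) and -0.31 (SE 0.25), so the sign differed between probes.

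ID3 was 5.17, 5.01, 4.63 and 4.89 in DMSO and 4.49, 4.88, 5.01 and 4.88 in DAPT. DAPT lay below DMSO on both arrays of slide 1, and the order was mixed on slide 2. Over both slides the log2 difference was -0.11 (SE 0.19, 95% interval -0.53 to 0.32, exact permutation p = 0.429), with -0.40 on slide 1 and 0.18 on slide 2. The second ID3 probe gave -0.33 and 0.22 on the slides. The difference between the slides, 0.58 (SE 0.32) by the brightest probe, did not pass the test (adjusted p = 0.9999).

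ID4, found in neural progenitors, was 4.96, 5.15, 5.62 and 5.73 in DMSO and 4.89, 5.31, 5.46 and 5.31 in DAPT. On slide 2 both DAPT arrays lay below both DMSO arrays, and on slide 1 they lay on either side of them. Over all 8 arrays the log2 difference was -0.12 (SE 0.22, 95% interval -0.62 to 0.38, exact permutation p = 0.629). All 3 ID4 probes were below 0, at -0.19, -0.12 and -0.055, although the brightest was at 0.050 with array weights.

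The 95% intervals of the brightest probes, put in folds, show the precision of 4 pools per condition in the fit without a block. For ID1 the interval ran from 0.691 to 1.34, for ID2 from 0.772 to 1.35, for ID3 from 0.691 to 1.24 and for ID4 from 0.650 to 1.3 (DAPT over DMSO). Other probes reached lower, to 0.545 and 0.589 for ID2, and the ID1 probe was the one saturated on 2 arrays. The normexp differences of all 4 ID genes lay below these intervals. The intervals therefore hold for the background correction of the deposited intensities and for these probes. Without a block the ligands and antagonists had wider intervals, up to 2.42-fold for CHRD and 2.32-fold for BMP7. These widths include the difference between the slides. With slide as a block the SE was 0.136 for CHRD and 0.141 for BMP7. For ID1, ID2, ID3 and ID4 it was 0.145, 0.141, 0.170 and 0.153. It was 0.195 for BMP2, 0.202 for BMP4, 0.164 for NOG and 0.215 for CHRDL1.

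Differences within slides were looked at after the data were seen. For 3 of the 10 genes the DAPT arrays lay on the same side of the DMSO arrays within both slides: BMP2 was lower, and CHRD and BMP7 were higher. The same held for 1225 of all genes (6.47%), 583 higher and 642 lower. BMP7 counts here by its brightest probe alone. Neither its second probe nor the probes named by accession were placed in this way, while both CHRD probes were. With slide as a block, 0 of the 10 genes had an adjusted p under 0.05 against 95 of all genes (0.501%), and at an unadjusted p under 0.05 the counts were 2 of the 10, BMP2 and CHRD, against 1268 of all genes. The responses had the same sign on both slides for 6 of the 10 genes. For 0 of the 10, and for 0 of 18939 genes (0%), did the response differ between slides in the interaction test, where 479 genes had an unadjusted p under 0.05.

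**Figure D3:**
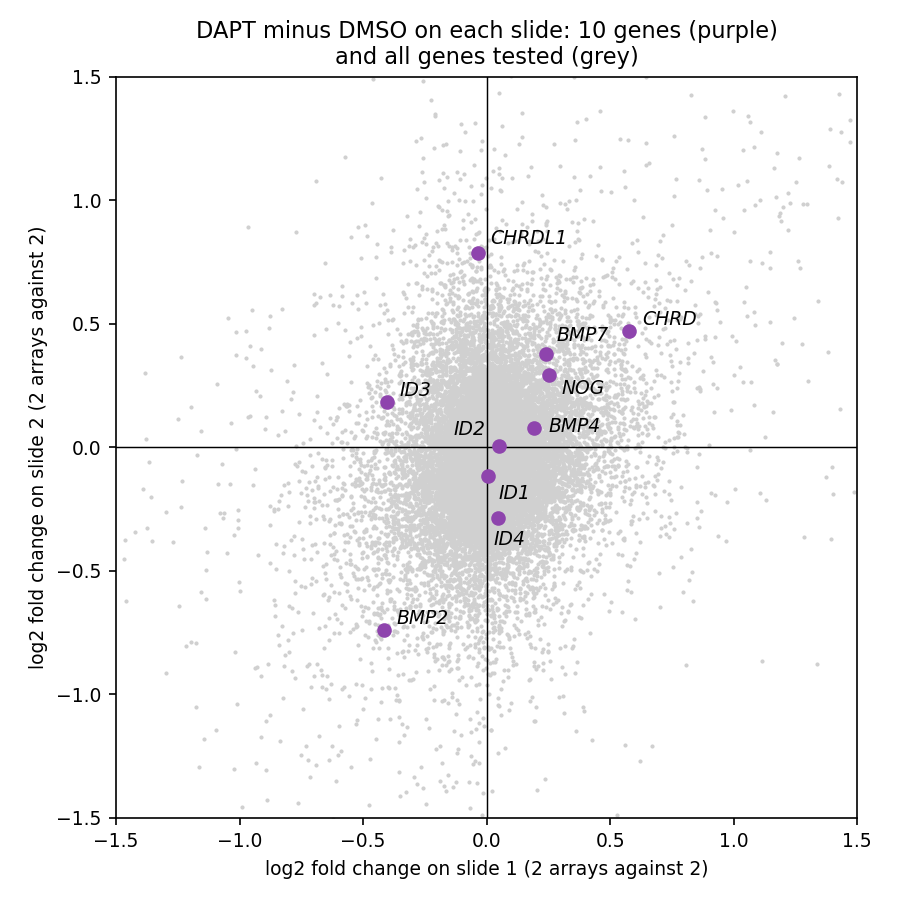
Log2 difference, DAPT minus DMSO, on slide 1 (horizontal axis) and slide 2 (vertical axis), each of 2 arrays against 2, for the 10 genes (purple, named) and for all genes tested (grey); 128 genes lie outside the plotted range of ±1.5. BMP2 is below 0 on both axes at -0.42 and -0.74, CHRD is above 0 on both, and CHRDL1, ID1, ID3 and ID4 have opposite signs on the slides.

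More of the 10 genes differed between the slides than between the conditions. Slide 2 against slide 1, with the condition in the fit, 7 of the 10 genes had an adjusted p under 0.05, 4 higher and 3 lower, in a comparison where 43.1% of all genes did. The log2 difference, slide 2 minus slide 1, was 0.59 for BMP2, 0.68 for BMP4 and 0.49 for NOG, and 0.45 for ID4. CHRD had -0.94, ID1 had -0.43 and BMP7 had -1.18. For BMP7 the other probes differed in sign. The second probe had 0.18. The 3 probes named by accession had 0.78 (adjusted p = 0.00317), 0.22 and -0.48 (adjusted p = 0.0204), so only the last went with the brightest. For BMP4 the second probe had -0.40, against the sign of the brightest. The other ID4 probes had 0.42 and -0.25, the second ID1 probe had -0.33 and the second NOG probe had 0.51. None of these other ID4, ID1 and NOG probes had an adjusted p under 0.05. The second CHRD probe had -0.91 (adjusted p = 0.000777). CHRDL1 had 0.56 (adjusted p = 0.0562), and ID2 and ID3 did not pass.

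Marker lists of the tissues in the dissection were read beside these values. Summed signals, in multiples of the array median, of the 6 tested blood markers of 11 listed were 235.5 to 505.5 on slide 1 and 5.27 to 37.4 on slide 2. Those of 9 forebrain neuroepithelium markers were 146.6 to 168.1 on slide 1 and 220.2 to 244.3 on slide 2, and those of 8 head mesenchyme markers were 228.3 to 315.7 and 131.6 to 216.2. The summed levels of these 3 lists therefore parted the slides, but sums follow their brightest genes and single markers did not all follow. Slide 2 minus slide 1 was 1.03 for LHX2 and 0.80 for OTX2 but -0.80 for NKX2-1. Among mesenchyme markers it was -0.74 for COL1A1 but 0.31 for PDGFRA, all named after their values were seen. The part of these tissues in the slide differences of the 10 genes was not tested. Between the conditions the summed levels of these lists overlapped, and 0 of their genes had an adjusted p under 0.05.

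Neuron markers did differ between the conditions. Of 7 tested of 8 listed, 3 had an adjusted p under 0.05, all higher with DAPT: NEFM, a neurofilament subunit, by a log2 difference of 2.22 (SE 0.29, adjusted p = 0.0190), TAGLN3 by 1.88 (SE 0.25, adjusted p = 0.0227) and NHLH1, a transcription factor of newborn neurons, by 1.83 (SE 0.27, adjusted p = 0.0396). Of the 7, 5 passed with a block for slide and 6 with one for the array number. The paper lists NEFM, TAGLN3, NHLH1 and STMN2 among genes raised on these same arrays, so their direction is not independent evidence. Outside that list, ELAVL4 had 1.19 (adjusted p = 0.520) and ISL1 had 1.44 (adjusted p = 0.151). The list prints only some of the genes the paper found raised on these arrays. ELAVL4 and ISL1 are therefore not independent evidence either. Both passed with slide as a block (adjusted p = 0.00598 and 0.00673). STMN2, ELAVL4 and ISL1 were named after their values were seen. The summed level of the 7 was 121.3 to 151.0 in DMSO and 205.5 to 231.1 in DAPT, and the part of these cells in the values of the 10 genes was not tested. TUBB3, a tubulin of neurons, was the only 1 of the 7 below 0, at -0.17 (SE 0.17), and was named after its value was seen. Lists of surface ectoderm and placode, neural crest and endothelium markers had 0 genes with an adjusted p under 0.05. LMO2, an endothelium and blood progenitor gene named after its value was seen, had 1.05 (SE 0.18) and adjusted p = 0.0802, and it passed with slide as a block (adjusted p = 0.00937).

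The rest of the pathway gave no gene that passed the test. Of 66 further genes of the pathway listed, 53 were found on the array by symbol and 47 were tested, and 0 had an adjusted p under 0.05, without a block or with slide as a block. Their log2 differences ran from -0.44 to 1.03, with 26 above 0 and 21 below and a median of 0.041, beside -0.011 over all genes. At an unadjusted p under 0.05 without a block the count was 0, and 0 had arrays that did not overlap between the conditions. With the E proteins added, 50 genes were tested, and 5 had an unadjusted p under 0.05 with slide as a block. In that fit 6.69% of all genes did. A block for the array number gave 7 of the 50, against 8.84% of all genes.

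By role, 5 other ligands had a median log2 difference of 0.13, from -0.36 to 0.31. The 8 receptors and co-receptors, which include BMPR1A, BMPR1B and BMPR2, had a median of 0.043, from -0.31 to 0.54. The 7 SMAD and SMURF genes, which carry the signal, inhibit it or degrade its carriers, had a median of -0.091, with 6 of 7 below 0. The 15 other antagonists and modulators had a median of 0.089, with 9 above 0 and 6 below. This list mixes antagonists with other modulators, such as BMP1, TLL1 and TLL2, so it cannot show whether antagonists share a sign. The 12 other targets had a median of 0.15, and the 3 E proteins TCF3, TCF4 and TCF12, the partners that ID proteins bind, had 0.11, 0.0070 and 0.13. Among targets, MSX1, a homeobox gene of the dorsal midline, had 0.033 (SE 0.17), and MSX2 had -0.27 (SE 0.22), both named after their values were seen.

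**Figure D4:**
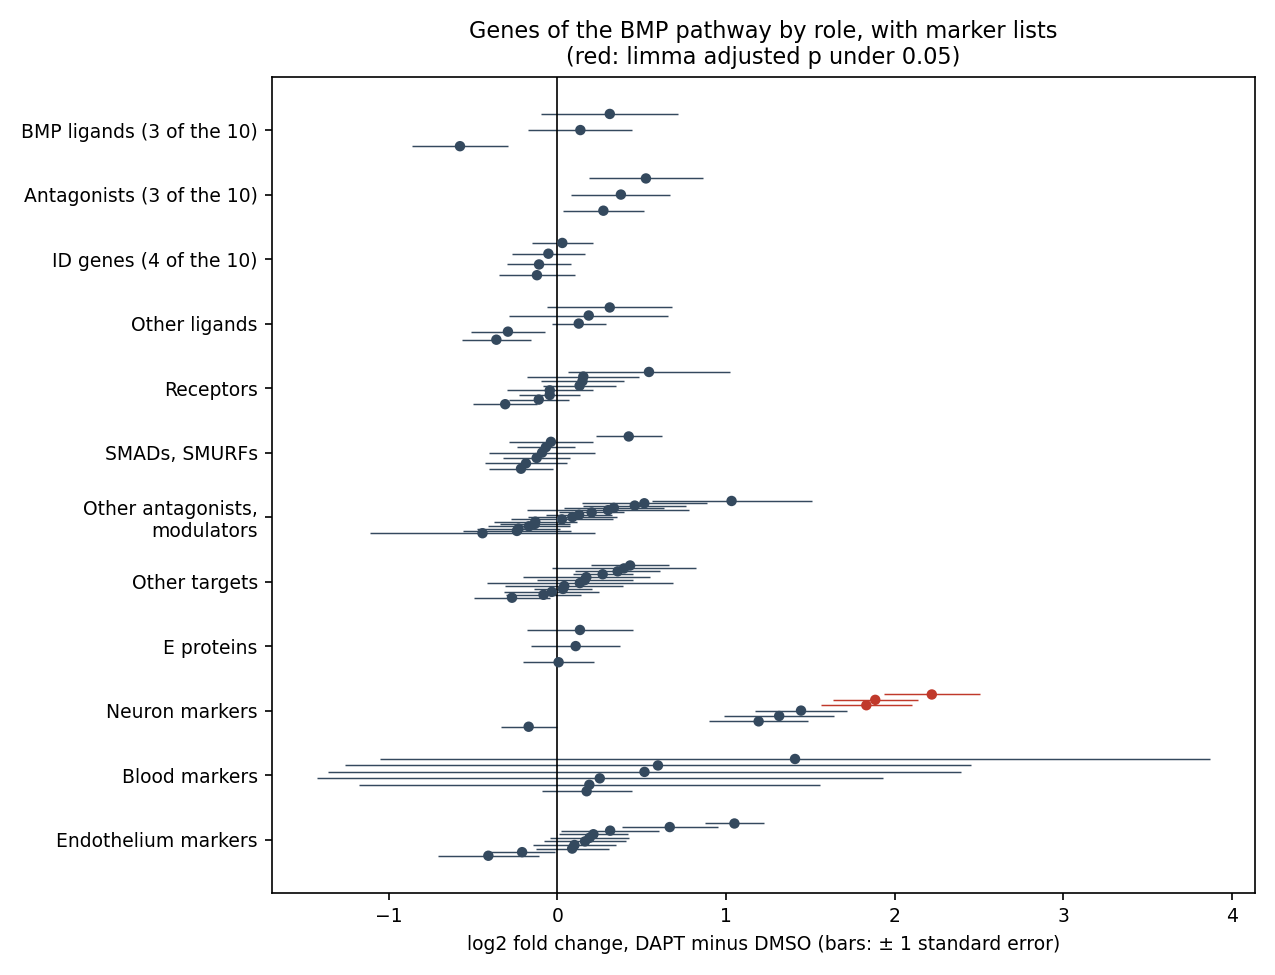
Log2 difference, DAPT minus DMSO (horizontal axis), with bars of ± 1 SE, for the 10 genes, the other genes of the pathway by role, and 3 marker lists; red marks an adjusted p under 0.05. No BMP pathway gene is red, the pathway genes lie between -0.58 (BMP2) and 1.03, and 3 of the 7 neuron markers are red, at 1.83 to 2.22.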

How the data were processed

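RNA from 8 pools of chick forebrain tissue was hybridized to single-dye Agilent arrays. The authors deposited the output of Agilent Feature Extraction 10.7.1.1, with background-corrected intensity values that are not normalized between arrays. They also deposited tables of mean intensity, mean log2 values and a signed fold change score for each condition. Of these only the gene symbols, gene IDs and accessions were used here. The columns with the authors' own comparison were not used. The labels hold 2 samples, each with 4 arrays. These arrays, numbered 1 to 4 in the deposited data, were taken as the separate pools that the study describes, and if they are not, the p-values measure technical spread.

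In R 4.3.3 with limma 3.58.1, log2 of each intensity had the log2 median of its array subtracted, control and outlier spots were left out, and spots of a probe were averaged. Probes well above background on 4 of 4 arrays of a condition were tested (lmFit, eBayes). A gene was read from its brightest probe. Symbols of 2234 probes came from the RefSeq gene table (GRCg7b). The array was designed on another build, so no positions are given, and probe sequences were not analysed here. Figures were drawn with matplotlib 3.10.9. The fit was tested on simulated data.

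The 10 genes and all gene lists were chosen with earlier results of these data known. The rule for naming took all 10 genes, pathway and marker genes with an adjusted p under 0.05, and HES5, HEY1, DLL1 and NEUROG1. Across probes, centred values of the 4 same-numbered pairs of a DMSO and a DAPT array had correlations of 0.68, 0.57, 0.77 and 0.50. Other pairs within a slide had 0.42 to 0.67. Values were centred within each condition only, so this check cannot separate pairing by number from slide. With the array number as a replicate block 191 probes were called, beside 140 with slide as a block and 42 without a block, and 0 of the 10 genes. Alternatives were other scalings, normexp, no filter, blocks, array weights, a floor, each slide alone, and leaving out each array. Normexp used median spot and background signals, because the files used here hold no mean spot signal.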

Additional observations from a re-analysis of the deposited data

Results flagged for a closer look

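BMP2 on DAPT array 3, at a log2 signal of 4.94 relative to the array median, was far from the other DAPT arrays, whose values were 4.05 to 4.12. The gap to the nearest array was 0.922 of the range of the 4 DAPT values, above Dixon's critical value for 4 samples. Each condition of each of the 10 genes was checked, which makes 20 groups, and chance alone gives such a value in about 1 in 20. Without this array all DAPT values of BMP2 lay below all DMSO values, which was so for 2.19% of all genes. The array was picked by its BMP2 value and left out alike for every gene, so that share is not a like measure. The log2 difference of BMP2 was then -0.79. On the same array 7 of the 10 genes had the highest of their 4 DAPT values: BMP2, BMP4, NOG, CHRDL1, ID2, ID3 and ID4. Only BMP2 passed that limit, and the like share over all genes is not given here. This array lies on slide 2, where BMP2, BMP4, NOG and ID4 had higher signals than on slide 1. The cause was not tested.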

How the results depend on the processing

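0 of the 10 genes and 0 of the other pathway genes were called in any of the 21 settings run. The lowest adjusted p of a member in an alternative was 0.143, with normexp for BMP2, ID2, ID3 and ID4, while BMP4 and BMP7 stayed at 0.486 and 0.533 or above. Over all probes, the 42 calls became 17 with normexp, 13 without the filter on dim probes, 140 with slide as a block, 191 with the replicate block, 80 with array weights, 25 on slide 1 alone and 73 on slide 2 alone, and they were 11 to 39 when each array was left out. Fewer arrays or more tests enter some of these, and otherwise the cause was not tested.

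DAPT and DMSO arrays were apart for 4 of the 10 genes with normexp, all lower with DAPT, in a setting where 13.2% of all genes did not overlap. The count was 5 on slide 1 alone and 5 on slide 2 alone, 3 higher and 2 lower on each, where 26.8% and 30.2% of all genes did not overlap. It was 0 to 1 when each array was left out, where 3.05% to 3.86% of all genes did not overlap. The 1 gene was BMP2 without DAPT array 3, where 3.56% of all genes did not overlap. BMP2 and CHRD kept their sign in all 20 alternatives, from -1.30 to -0.39 and from 0.044 to 0.71.

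Signs turned for the other 8 genes, none of them called. With normexp NOG became -0.21, CHRDL1 -0.097 and ID2 -0.67. With array weights BMP7 became -0.15 and ID4 0.050. Slide 1 alone gave -0.036 for CHRDL1, 0.0074 for ID1 and 0.045 for ID4, slide 2 alone gave 0.18 for ID3, and the mean over its probes gave -0.15 for ID2. When each array was left out, BMP4 ran from -0.079 to 0.38, ID1 from -0.20 to 0.054 and ID2 from -0.056 to 0.12. The brightest BMP7 probe named by accession, an alternative chosen after the data were seen, gave 0.035. For arrays the signal over background limits precision, and all 21 probes were above it on every array.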

Other observations

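Some modulators of the pathway outside the 10 genes are named here after their values were seen, and 0 of them passed the test. BMPER, a secreted protein with chordin-like repeats that binds BMPs, was -1.76, -2.51, -1.22 and -1.52 in DMSO and -1.09, -1.01, 0.78 and -1.57 in DAPT. DAPT array 3 was its highest and array 4 lay among the DMSO values, and the log2 difference of 1.03 (SE 0.47) had an adjusted p of 0.711 with slide as a block. FST, follistatin, which binds activins and some BMPs, had 0.52 (SE 0.37), with 0.58 on slide 1 and 0.45 on slide 2. BAMBI, a membrane pseudoreceptor that is itself a target of BMP signalling, had 0.46 (SE 0.31), with 0.59 on slide 1 and 0.33 on slide 2.

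SMAD7, an inhibitory SMAD, was 2.43, 2.56, 2.85 and 2.92 in DMSO and 2.87, 3.45, 3.04 and 3.09 in DAPT. Both DAPT arrays lay above both DMSO arrays on each slide. The log2 difference was 0.42 (SE 0.20), with 0.67 on slide 1 and 0.18 on slide 2, and an exact permutation p of 0.0571 (two-sided, 4 arrays against 4). With slide as a block the adjusted p was 0.759. GREM1, a secreted antagonist, was the lowest of the 47 tested pathway genes outside the 10 at -0.44 (SE 0.67), and on slide 2 it was dim, with -2.59 and -2.84 in DMSO and -4.24 and -2.81 in DAPT.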
